A study of Mus musculus with 17 samples.

Results

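The genes described are 6 enzymes and enzyme partners of eicosanoid synthesis, Pla2g4a, Ptgs1, Ptgs2, Ptges, Alox5 and Alox5ap, out of 21887 protein-coding mouse genes. They were chosen by name for the pattern of RNA polymerase II summits over them by genotype and time of R837, so their own values are given as a description, with no test. A summit, the single base that marks the top of a called peak of polymerase binding, was assigned to a gene when it lay within the annotated gene or up to 1 kb outside it. Of the 6 genes, 4 had a summit in at least 2 libraries and entered the fit across all genes, while Ptgs1 and Alox5 had none in any of the 16 libraries.

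ChIP-seq was run for RNA polymerase II, the enzyme that transcribes protein-coding genes, in macrophages grown from mouse bone marrow. The cells were N4bp1 KO or WT, and both genotypes were either left untreated or given R837 for 2, 4 or 6 h. Each of the 8 combinations had 2 libraries, so 6 KO R837, 6 WT R837, 2 KO untreated and 2 WT untreated libraries were compared. R837 is imiquimod, a small-molecule agonist of the endosomal receptor TLR7, and N4BP1 is known as a restraint on inflammatory gene expression that caspase-8 can cleave. The labels do not tell how N4bp1 was disrupted, how old the mice were or whether the 2 libraries of a group are separate cultures or animals, so the spread between them may be technical.

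Eicosanoids are short-lived lipid signals made from arachidonic acid, which the cytosolic phospholipase A2 encoded by Pla2g4a releases from membranes. The cyclooxygenases encoded by Ptgs1 and Ptgs2 turn it into prostaglandin H2, and the microsomal synthase encoded by Ptges converts that product to prostaglandin E2, a mediator of fever, pain and macrophage feedback. In the other branch the 5-lipoxygenase encoded by Alox5 works with the membrane protein FLAP, encoded by Alox5ap, to begin leukotriene synthesis. In macrophages Ptgs1 is known as the constitutive cyclooxygenase and Ptgs2 as the one induced by microbial signals.

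The promoters of the phospholipase and of the inducible cyclooxygenase are shown because their starts lie 138.7 kb apart on chromosome 1 and because summits appeared just downstream of both starts after R837. Each line gives the 250 bases before the outermost listed transcription start, 5′ to 3′ on the strand of the gene, from RefSeq on GRCm38.p6. Capitals mark matches to the motifs searched. The Ptgs2 window is chr1:150099781-150100030 on the plus strand and the Pla2g4a window is chr1:149961291-149961540 on the minus strand.
Ptgs2: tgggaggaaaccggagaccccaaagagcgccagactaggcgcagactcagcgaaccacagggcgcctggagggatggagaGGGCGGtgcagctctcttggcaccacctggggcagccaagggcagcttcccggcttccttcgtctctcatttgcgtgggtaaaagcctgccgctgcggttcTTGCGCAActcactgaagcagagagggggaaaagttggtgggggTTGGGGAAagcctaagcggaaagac
Pla2g4a: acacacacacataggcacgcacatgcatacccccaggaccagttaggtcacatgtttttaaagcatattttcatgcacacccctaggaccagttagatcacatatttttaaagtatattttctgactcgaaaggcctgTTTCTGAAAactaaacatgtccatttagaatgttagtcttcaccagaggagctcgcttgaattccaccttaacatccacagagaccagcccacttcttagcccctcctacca

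The motifs searched on both strands were NF-kB, AP-1 (TGANTCA), the cyclic AMP response element core (TGACGT), C/EBP (TTNNGNAA), E-box (CACGTG), the TATA box (TATAAA) and the GC box (GGGCGG). With the listed start as position 0, the Ptgs2 window held the C/EBP letters at -69 to -62, where they match on both strands, and again at -25 to -18, and a GC box at -170 to -165. The Pla2g4a window held a pair of C/EBP matches that overlap each other on opposite strands, at -112 to -105 and at -111 to -104. C/EBP letters are common, in 34.0% of 21238 such promoter windows, and the GC box is in 42.6%. The other motifs were in neither of these 2 windows. Over all windows they were in 7.91% (NF-kB), 6.14% (AP-1), 7.36% (cyclic AMP response element core), 6.63% (E-box) and 11.6% (TATA). Bases further upstream or just past the listed start were not searched. A motif absent from a window may therefore still lie in the promoter outside it. Pla2g4a has a second listed start, whose window (chr1:149922440-149922689) is not printed and held a TATA match at -200 to -195. The GC content was 61.6% in the Ptgs2 window and 43.2% in the Pla2g4a window, against a median of 55.6% over all windows. Such matches describe letters only. In the windows of the other genes, Ptges had 1 C/EBP match and 2 GC boxes, Alox5 had 1 GC box, Ptgs1 had none of the motifs, and Alox5ap is named only.

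Each library is a list of summits with the authors' score, on a −log10 scale of p-values or of q-values, without read counts, so read depth is unknown. The lists held 8394 to 29760 summits. To make ranks comparable, only the best 8394 summits of each list were ranked. A gene's rank score is log2 of a quotient, the shortened list's length plus 1 over the best rank among the gene's summits, and runs from 0 with no summit in the shortened list to 13.04 for the top summit. A rank score is a place in a list and not an amount of polymerase. In bulk cells a smaller share of cells with polymerase on a gene and less polymerase per cell cannot be told apart. The shortened lists covered 6443 to 6714 genes in untreated libraries and 2693 to 5900 in R837 libraries. A gene can thus drop to 0 after R837 because other genes hold more of the list, and the part of this in lower rank scores was not tested. Replicate 2 of KO at 6 h stood apart, with a highest score of 563.5 against at most 320.4 in any other library, and the 6 h differences that include it are given with and without it. At most 0.087% of its score values were found in any 1 other list, while each of the other lists had at least 39.909% of its own values in some list. Codes in the peak names fall in 3 series, one for untreated and 2 h, one for 4 h and one for 6 h, so any batch between series cannot be told apart from the 4 h and 6 h times when these are set against untreated. Of 9 macrophage markers, 8 had a summit in at least 8 full lists and their summed rank score was 26.85 to 50.33 in R837 libraries and 35.97 to 40.08 in untreated ones, while 6 of 8 neutrophil markers and 7 of 7 mast cell and basophil markers had a summit in none. Of the other lists, 5 of 6 T and NK cell markers and 3 of 5 B cell markers had a summit in none, and of 5 dendritic cell markers only Siglech had none, with a summed rank score of 0.37 to 5.15 in R837 libraries and 0.38 to 1.61 in untreated ones, where the Xcr1 region overlaps Fyco1. Among macrophage markers, Mertk was in 6 full lists, 4 of them untreated, and the Csf1r and Cd68 regions overlap other coding genes. Of the markers of other cells, Cd3d, whose region overlaps Cd3g, was in 11 full lists, 4 of them untreated. S100a8 and Camp were each in 4 full lists, Cd79a in 3 and Ms4a1 in 2. The part of the other cell types in the results was not tested. N4bp1 itself had a summit in the shortened lists of 6 of 6 KO R837 libraries, at ranks 537 to 1713, and of 6 of 6 WT R837 libraries, at ranks 947 to 3442, and in none of the 4 untreated libraries. As the deleted part of N4bp1 is not known from the labels, those summits do not check the genotype.

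Pla2g4a (gene ID 18783, chromosome 1, 149829618 to 149961290, minus strand, GRCm38.p6) makes the first committed step, the release of arachidonic acid. In untreated cells its summits lay outside the shortened lists, at rank 13382 in 1 of 2 KO libraries and rank 13763 in 1 of 2 WT libraries. At 2 h its rank score was 0 and 1.92 in KO libraries and 0.72 and 0.66 in WT libraries. At 4 h it reached 3.86 and 5.84 in KO, against 4.56 and 4.81 in WT, and these 4 are its highest values. The last time gave 3.72 and 2.51 in KO and 1.99 and 1.59 in WT, below all 4 h values. The 6 h difference of KO and WT was 1.32 ± 0.74, 1.93 without replicate 2 of KO, the library described above as standing apart, and 0.72 without replicate 1 of KO. Averaged over R837 libraries, the rank score was 2.68 ± 0.43 (SE of the fit) above the untreated mean of 0.

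The position of these summits was narrow. In 12 of 12 R837 libraries the best Pla2g4a summit lay within 1 kb of the listed start, 14 to 256 bases downstream of it. More than 1 kb from the start, across the rest of this 131673-base gene, 4 of 6 KO R837 libraries had 29 summits in all and 3 of 6 WT R837 libraries had 13. None of those lay in a 2 h library, and among untreated libraries 1 of 4 had 1 such summit. The number of summits in a full list moves with the length of that list, which at 4 h was 25612 and 24671 in KO against 16391 and 19710 in WT, and the part of list length in these counts was not tested.

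**Figure D1:**
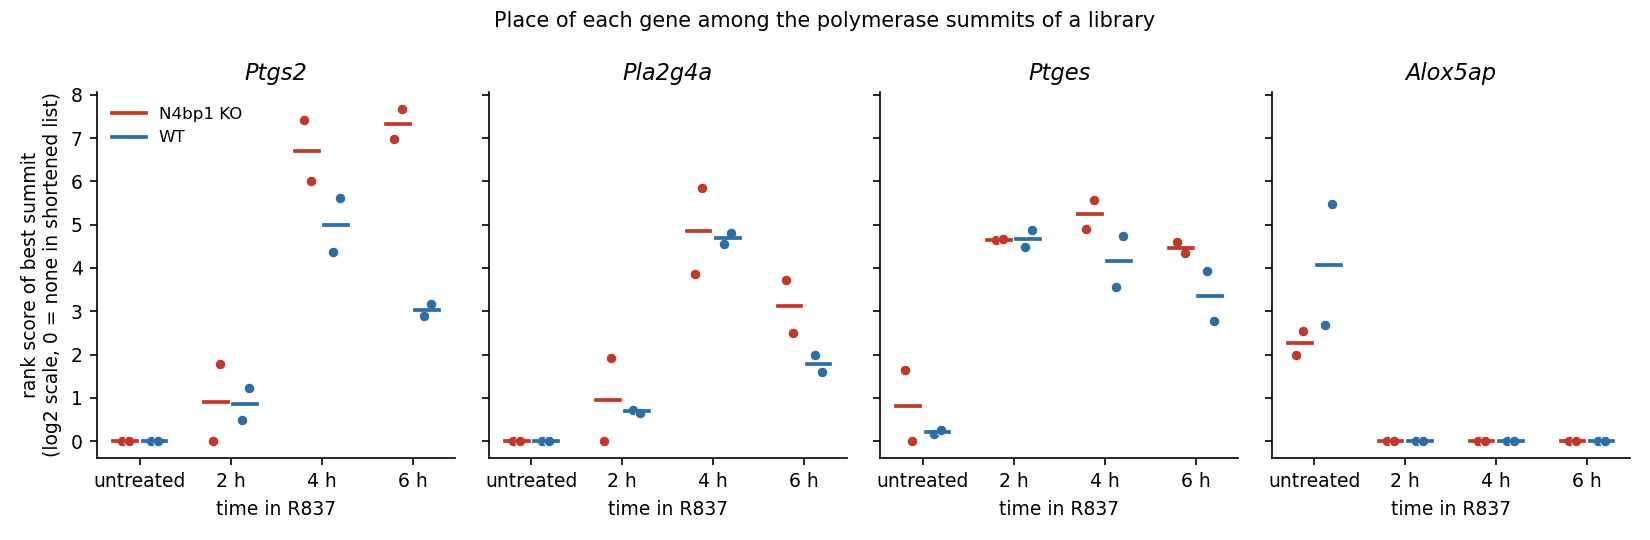
Rank score of each gene in each library, by time of R837 in h on the horizontal axis, with 1 point per library and the group mean as a bar, KO to the left of WT. Ptgs2 and Pla2g4a sit at 0 in the untreated libraries and are highest at 4 or 6 h, Ptges is already above 4 at 2 h, and Alox5ap is above 0 only in the untreated libraries.

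Ptgs1 (gene ID 19224, chromosome 2, 36216742 to 36258593, plus strand), the constitutive cyclooxygenase, had no summit in any of the 6 KO R837, 6 WT R837, 2 KO untreated or 2 WT untreated libraries, also in the full lists. A missing summit means that no peak passed the authors' threshold there, where the lowest deposited scores lay between 7.03 and 7.09.

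Ptgs2 (gene ID 19225, chromosome 1, 150100031 to 150108234, plus strand) had its best summit in the top 1% of the list in 5 of 12 R837 libraries, and no summit in any of the 4 untreated libraries. At 2 h its best summit ranked 8887 and 2427 in KO, which is a rank score of 0 and 1.79, against 5938 and 3580 in WT, rank scores of 0.50 and 1.23. The 2 h values of the genotypes overlap. At 4 h it ranked 49 and 131 in KO, rank scores of 7.42 and 6.00, against 402 and 171 in WT, rank scores of 4.38 and 5.62. At 6 h it ranked 66 and 41 in KO, rank scores of 6.99 and 7.68, against 1126 and 942 in WT, rank scores of 2.90 and 3.16. So the KO values were above both WT values at 4 h and further above them at 6 h, where the WT values were below the WT values of 4 h.

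The authors' own score for the best Ptgs2 summit can be read only within a list. At 6 h it was 130.7 and 275.3 in KO, a place in the best 0.298% and 0.138% of those lists, against 36.5 and 26.5 in WT, in the best 6.62% and 11.2%. Averaged over R837 libraries, Ptgs2 was 3.97 ± 0.41 above the untreated mean of 0, with differences of 0.88 ± 0.50 at 2 h, 5.86 ± 0.50 at 4 h and 5.18 ± 0.50 at 6 h. The step from 2 h to 4 h, which crosses a code series, was 4.98 ± 0.50.

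KO cells averaged a Ptgs2 rank score of 4.98 after R837 and WT cells 2.96, a difference of 2.02 ± 0.41. By time the difference of KO and WT was 0.03 ± 0.71 at 2 h, 1.71 ± 0.71 at 4 h and 4.31 ± 0.71 at 6 h, where the means were 7.33 in KO and 3.03 in WT. Without replicate 2 of KO, the library that stood apart, the 6 h difference was 3.96. These comparisons are within a code series, but the 6 h lists were longer in KO, 22157 and 29760 summits, than in WT, 17007 and 8394. With ranks taken in the full lists, the 6 h difference was 5.41, and 4.85 without that library.

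The genotypes also differed in how many Ptgs2 summits were called and where, and this count went the other way. At 6 h the KO libraries had 2 and 2 summits in the gene region, against 11 and 10 in WT. All 4 KO summits lay near the gene's ends: 138 and 259 bases after the start, and 183 and 423 bases past the end. The WT summits were strung along the gene, with 15 of 21 in the body more than 1 kb from either end, although the WT lists were the shorter ones. Over all R837 times, 1 of 6 KO libraries had 2 summits in the body, both at 2 h, while 6 of 6 WT libraries had 21. When the number of summits in the shortened lists, as log2 of the number plus 1, was used in place of the best rank, the KO minus WT difference was -1.55 at 6 h and -0.9 over all R837 libraries, opposite in sign to the rank score. The files give no peak widths, so whether the KO summits stand for wider peaks was not tested. In the shortened lists, all of equal length, the 6 h WT libraries had a summit in 4394 and 2693 genes. The 6 h KO libraries had one in 4734 and 5900 genes. The same number of summits thus covered fewer genes in WT over the whole list, and the part of this in the Ptgs2 counts was not tested.

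**Figure D2:**
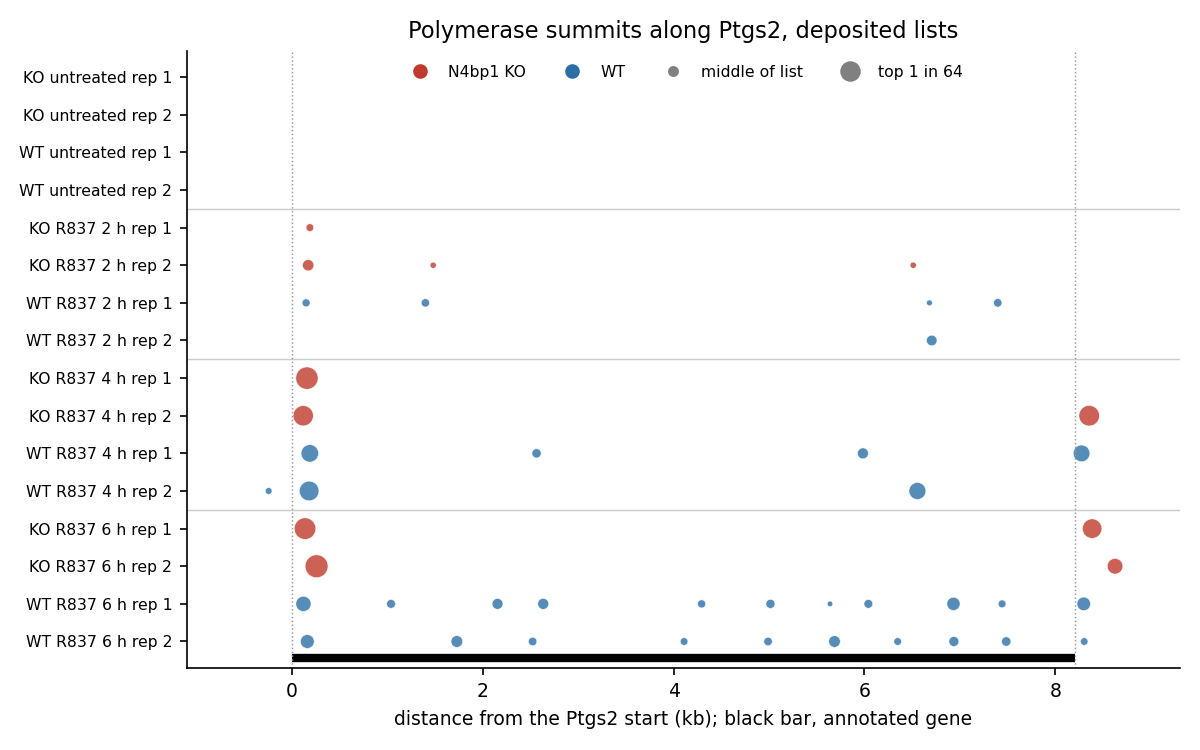
Position of every Ptgs2 summit in the full lists, in kb from the listed start, with 1 row per library, KO above WT within each time, and larger points for better ranks. At 6 h the KO libraries have 2 summits each, at the start and just past the end, and the WT libraries have 11 and 10 spread along the gene.

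At the Ptgs2 start itself, a summit lay within 1 kb of the start in 6 of 6 KO R837 libraries, 5 of 6 WT R837 libraries and 0 of 4 untreated libraries, and it was the best summit of the gene in 9 of the 12 R837 libraries. The divergent noncoding gene Ptgs2os begins 157 bases upstream on the opposite strand, so polymerase on the pair cannot be separated from these summits. Within 1 kb of the 3′ end a summit was called in 3 of 6 KO and 4 of 6 WT R837 libraries.

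Ptges (gene ID 64292, chromosome 2, 30889471 to 30931020, minus strand) had the earliest high rank score of the 3 genes that were higher after R837. That score came from summits far upstream of its listed start, as described below. In untreated cells its rank score was 1.64 and 0.00 in KO and 0.17 and 0.25 in WT. At 2 h it was 4.64 and 4.66 in KO and 4.48 and 4.88 in WT, a range of under 1 unit over all 4. No R837 library, the lowest at 2.78, overlapped an untreated one, the highest at 1.64.

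At later times the KO values of Ptges lay between 4.35 and 5.58 and the WT values between 2.78 and 4.75. At 4 h the rank score was 4.90 and 5.58 in KO and 3.57 and 4.75 in WT, and at 6 h it was 4.59 and 4.35 in KO and 3.93 and 2.78 in WT. The mean of KO was above that of WT by 1.08 at 4 h and 1.12 at 6 h, with an SE of 0.67 each. The 6 h difference was 1.23 without the KO library that stood apart, 0.54 without replicate 2 of WT and 1.69 without replicate 1 of WT. The average over R837 libraries was 4.43, against 0.52 in untreated ones, a difference of 3.91 ± 0.39, and the 2 h difference of 4.15 ± 0.47 lies within a code series.

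The best Ptges summit was not at the listed start of the gene. In 15 of 16 libraries, untreated ones included, it lay within 3 kb of the upstream end of the annotated span, which a longer transcript model places 27723 bases from the listed start. The noncoding or predicted genes Gm52550 and Gm13400 lie in the same region, so these summits cannot be given to the synthase alone. The part from 1 kb before the listed start to 1 kb past the lower end of the gene (30888471 to 30904297) had 43 summits in 5 of 6 KO R837 libraries, 12 summits in 3 of 6 WT R837 libraries and none in the 4 untreated libraries. Of the 43 in KO, 21 were called at 4 h and 21 at 6 h, where the KO lists were longer than the WT lists. At 2 h this part had summits in 1 of 2 KO libraries, with a best rank of 6722, and in 1 of 2 WT libraries, with a best rank of 5169. The high 2 h rank scores of Ptges are thus those of the upstream summits.

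**Figure D3:**
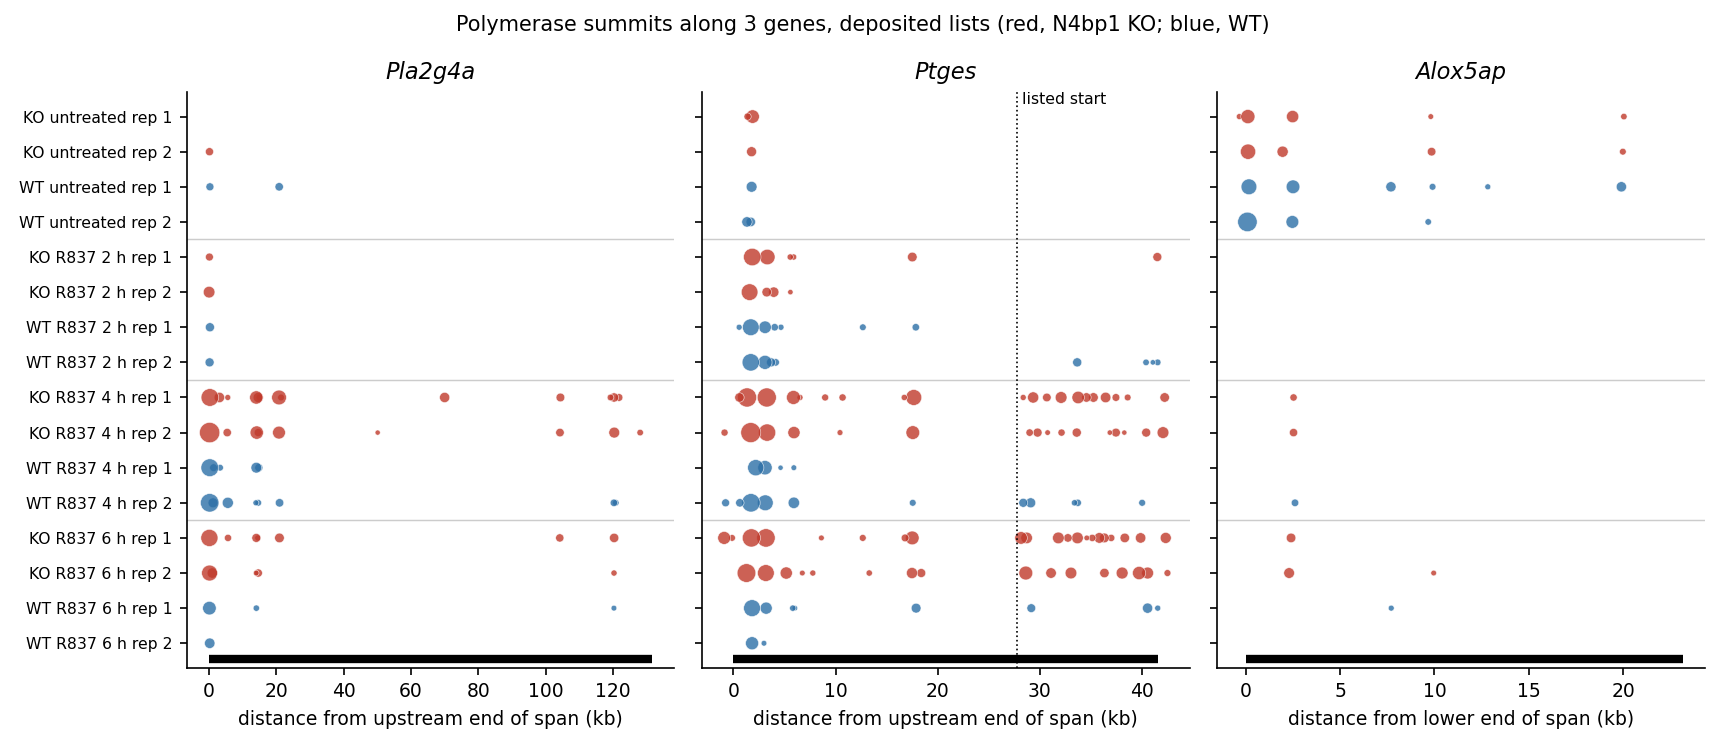
Summits over Pla2g4a, Ptges and Alox5ap in the full lists, by distance in kb from the upstream end of the annotated span, or from its lower end for Alox5ap, with 1 row per library, KO above WT within each time, and larger points for better ranks. The best Pla2g4a summit of each R837 library is at the start. Ptges summits lie near the upstream end in all 16 libraries and past the dotted listed start in 8 of 12 R837 libraries. Alox5ap summits within 1 kb of its lower end appear in the 4 untreated libraries only.

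Alox5 (gene ID 11689, chromosome 6, 116410071 to 116461178, minus strand), the 5-lipoxygenase itself, had no summit in any of the 16 full lists. Its partner Alox5ap (gene ID 11690, chromosome 5, 149265004 to 149288153) ran opposite to Ptgs2, Ptges and Pla2g4a. The untreated rank scores were 1.98 and 2.54 in KO and 2.69 and 5.47 in WT, and all 12 R837 libraries were at 0. One WT untreated library, at rank 190, was far above the other 3, at ranks 1297 to 2135. The mean was 0 in R837 libraries and 3.17 in untreated ones, a difference of -3.17 ± 0.40 that was already complete at 2 h, within a code series. This SE pools the spread over all groups, and the R837 groups had none, so it understates the spread between the untreated libraries.

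Summits over Alox5ap outside the shortened lists fill in part of this picture. None of the 4 libraries at 2 h had one in the full lists, which held 9402 to 13825 summits. At 4 h such summits were called at ranks 17969 and 14083 in KO and at 13194 in 1 of 2 WT libraries. At 6 h they were called at 9381 and 9198 in KO and at 15165 in 1 of 2 WT libraries. Ranks 17969, 14083 and 15165 lie beyond the end of every 2 h list. The part of list length in the absence at 2 h was not tested. The place at the lower end of the span was not among these 4 h and 6 h summits. Within 1 kb of the lower end of the span a summit was called in 0 of 12 R837 libraries and 4 of 4 untreated ones. A summit 1 to 3 kb into the span was called in 5 of 12 R837 and 4 of 4 untreated libraries. The KO and WT difference for untreated Alox5ap was -1.82 ± 0.69, an SE that is pooled in the same way and too small for these libraries. That difference was -0.44 without the WT library at rank 190, replicate 2, and -3.21 without replicate 1 of WT.

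Set against all 8481 genes in the same fit (limma, Benjamini-Hochberg adjustment, threshold 0.05), 3 of the 4 genes with values, Ptgs2, Ptges and Pla2g4a, were called higher after R837, where 5.79% of all genes were, and 1, Alox5ap, was called lower, where 29.5% were. The median change was 3.30 over the 4 genes and -0.33 over all genes. At 2 h against untreated, Ptges was called higher (4.83% of all genes) and Alox5ap lower (24% of all genes). At 4 h and at 6 h, 3 of the 4 were called higher, where 5.71% and 6.33% of genes were, and Alox5ap lower, where 19.8% and 23.2% were. Between KO and WT after R837, Ptgs2 was called higher, as were 0.46% of all genes, and the other 3 were not called. At 6 h alone Ptgs2 was again the 1 of 4 called higher in KO, where 1.13% of all genes were. At 4 h against 2 h, Ptgs2 and Pla2g4a were called higher (3.18% of genes), and at 6 h against 4 h Pla2g4a was called lower (1.98% of genes). Since the genes were chosen for this pattern, nothing is read from these counts.

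Around Ptgs2 and Pla2g4a, outside both gene regions, 30 further summits fell into 8 places between the Pla2g4a start and 150 kb beyond Ptgs2. None of them was in an untreated or a 2 h library. The 2 h lists held 9402 to 13825 summits, and some of the 30 had ranks beyond that, down to 19034 at 4 h and 28569 at 6 h. The part of list length in the absence at 2 h was not tested. The place used by most libraries was the start of Ptgs2os2, the noncoding RNA also known as lincRNA-Cox2, a regulator of macrophage inflammatory genes (gene ID 102639566, chromosome 1, 150159043 to 150164948, minus strand). It had a summit in 4 of 6 KO R837 and 3 of 6 WT R837 libraries, all 4 of the 4 h libraries among them, and its best rank was 3134. Between the end of Ptgs2 and that gene, summits clustered 9.6 kb from the Ptgs2 start, in 4 KO and 2 WT libraries, and 51.5 kb from it, in 3 KO and 2 WT libraries. On the other side, a cluster at -137.1 kb, next to the Pla2g4a start, was called in 2 KO and 2 WT libraries. Places 97.6 and 103.1 kb from the Ptgs2 start had summits in 3 KO libraries each and in no WT library, and as the KO lists at 4 h and 6 h were longer, the part of list length in this was not tested.

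**Figure D4:**
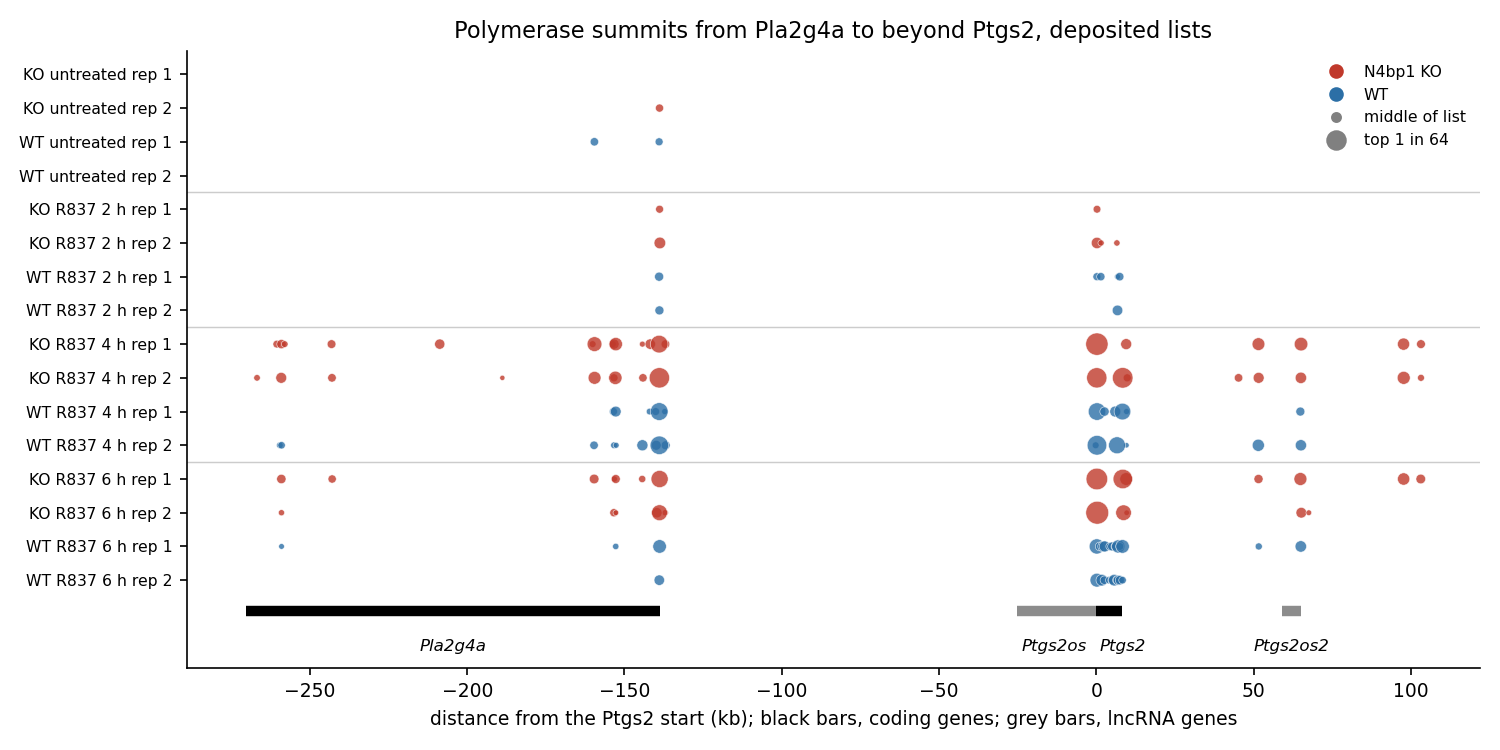
Summits of the full lists from Pla2g4a to beyond Ptgs2, by distance in kb from the Ptgs2 start, with 1 row per library, KO above WT within each time, larger points for better ranks, and annotated genes drawn as bars below. Outside the 2 gene regions every summit is in a 4 h or 6 h library, and the place at the start of Ptgs2os2 is used by 7 libraries. The 2 h lists are shorter than the 4 h lists.

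The rest of the eicosanoid pathway was followed through 54 other genes in 6 lists, of which 23 had a summit in at least 2 shortened lists and were tested. After R837, 2 of the 23 were called higher, 4 were called lower and 17 did not pass the test. Their median change was 0.00 against -0.33 over all genes. The shares of all genes called higher and lower in that comparison are those given above, 5.79% and 29.5%. R837 lists covered fewer genes, as given above, and the part of this in the calls was not tested.

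Cotl1, an actin-binding protein that also binds 5-lipoxygenase, had rank scores of 0 to 3.22 in R837 libraries (median 1.39, n = 12) and 3.18 to 4.84 in untreated ones (median 4.13, n = 4), a change of -2.76 ± 0.35 (adjusted p = 7.33e-05, limma). Pla2g15, the lysosomal phospholipase A2, was in the shortened list of 2 of 12 R837 libraries and 4 of 4 untreated ones and fell by 1.73 ± 0.22 (adjusted p = 8.04e-05, limma). Its change was -0.86 with no flank around the gene and -2.81 in full lists, and the call was kept in both. With only 2 of 12 R837 libraries above 0, its pooled SE, like that of Alox5ap, is too small for the untreated libraries. Tbxas1, thromboxane A synthase, had a median of 0.21 and a highest value of 1.82 in R837 libraries and 0.95 to 2.13 in untreated ones, and changed by -1.26 ± 0.29 (adjusted p = 0.00495, limma). Its groups overlap, and it was at 0 in all 4 libraries at 2 h. Akr1b3, an aldo-keto reductase that can make prostaglandin F2α, was in 0 of 12 R837 and 3 of 4 untreated libraries. It changed by -0.56 ± 0.18 and was called lower (adjusted p = 0.0249, limma). Its R837 groups had no spread, so this SE and adjusted p rest on a spread too small for the untreated libraries. That call was lost without replicate 1 of KO untreated (-0.25, adjusted p = 0.111) and without replicate 1 of WT untreated (-0.40, adjusted p = 0.167).

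Abcc1, a transporter that exports leukotriene C4, was in the shortened list of 11 of 12 R837 libraries (median 1.34, highest 3.68) and 0 of 4 untreated ones, and rose by 1.53 ± 0.37 (adjusted p = 0.00602, limma). Ptgdr2, a receptor for prostaglandin D2, was in 8 of 12 R837 and 0 of 4 untreated libraries and rose by 0.75 ± 0.23 (adjusted p = 0.0243, limma). Its best summit also lay in the region of Ccdc86 in all 8 lists, so it cannot be given to Ptgdr2 alone, and without replicate 2 of KO untreated its adjusted p was 0.0504.

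By list, calls after R837 were 1 of 3 tested phospholipases (lower), 0 of 5 genes of arachidonate handling and 2 of 5 other prostanoid synthases (both lower). In the remaining lists they were 1 of 3 leukotriene and lipoxygenase genes (lower), 1 of 3 genes of inactivation and transport (higher) and 1 of 4 receptors (higher). Some genes passed at single times only. At 2 h against untreated, a comparison within a code series, Anxa1, the gene of annexin A1, known as an inhibitor of phospholipase A2, rose by 2.64 ± 0.72 (adjusted p = 0.0158, limma). That call was lost without replicate 2 of WT untreated, of KO untreated or of KO at 2 h, with a highest adjusted p of 0.0679 (limma). Also at 2 h, Ptger4, the prostaglandin E2 receptor EP4, rose by 1.84 ± 0.40 (adjusted p = 0.00435, limma) and Dpep2, a dipeptidase that converts leukotriene D4, rose by 1.19 ± 0.32 (adjusted p = 0.0157, limma). Ptger4 then fell by 1.51 at 4 h against 2 h (adjusted p = 0.0459, limma), where 1.8% of all genes were called lower, while Hpgds, the hematopoietic prostaglandin D synthase, rose by 1.77 over the same step (adjusted p = 0.0452, limma). Both of these calls are near the threshold: leaving out 1 library at a time took the adjusted p above 0.05 in 12 of 16 cases for Ptger4 and in 15 of 16 for Hpgds, up to 0.139 and 0.12 (limma). Pla2g6, a calcium-independent phospholipase A2, rose in KO at 6 h against KO untreated by 1.12 ± 0.26 (adjusted p = 0.011, limma), where 5.12% of all genes were called higher, and by 1.48 (adjusted p = 0.00406, limma) without replicate 2 of KO at 6 h. Within 1 genotype, 8 of the 23 genes passed at 1 or more single times, as did 34% of all genes, but none did when only the 4 libraries of a comparison were fitted, and 5 did without replicate 1 or without replicate 2 of WT at 2 h.

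Between KO and WT, none of these 23 genes passed the test over all R837 libraries (0 in limma, 3 at an unadjusted p under 0.05), where 0.755% of all genes were called, or at any single time, where 1.73% of all genes were called at 1 or more times. With ranks taken in the full lists, where 29 pathway genes were tested and 2.19% of all genes were called, 3 passed over all R837 libraries, all higher in KO and named here after their values were seen: Abcc1 by 1.89 (adjusted p = 0.0356, limma), Pla2g6 by 1.37 (adjusted p = 0.0447, limma) and Pla2g7, a secreted phospholipase that degrades platelet-activating factor, by 1.21 (adjusted p = 0.0443, limma). Leaving out 1 library at a time, these full-list calls were lost in 7 of 16 cases for Abcc1, 10 for Pla2g6 and 12 for Pla2g7. With the shortened lists and without replicate 1 of KO at 6 h, Pla2g6 and Lpcat3 passed over all R837 libraries, and without replicate 2 of KO at 6 h Pla2g6 did.

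**Figure D5:**
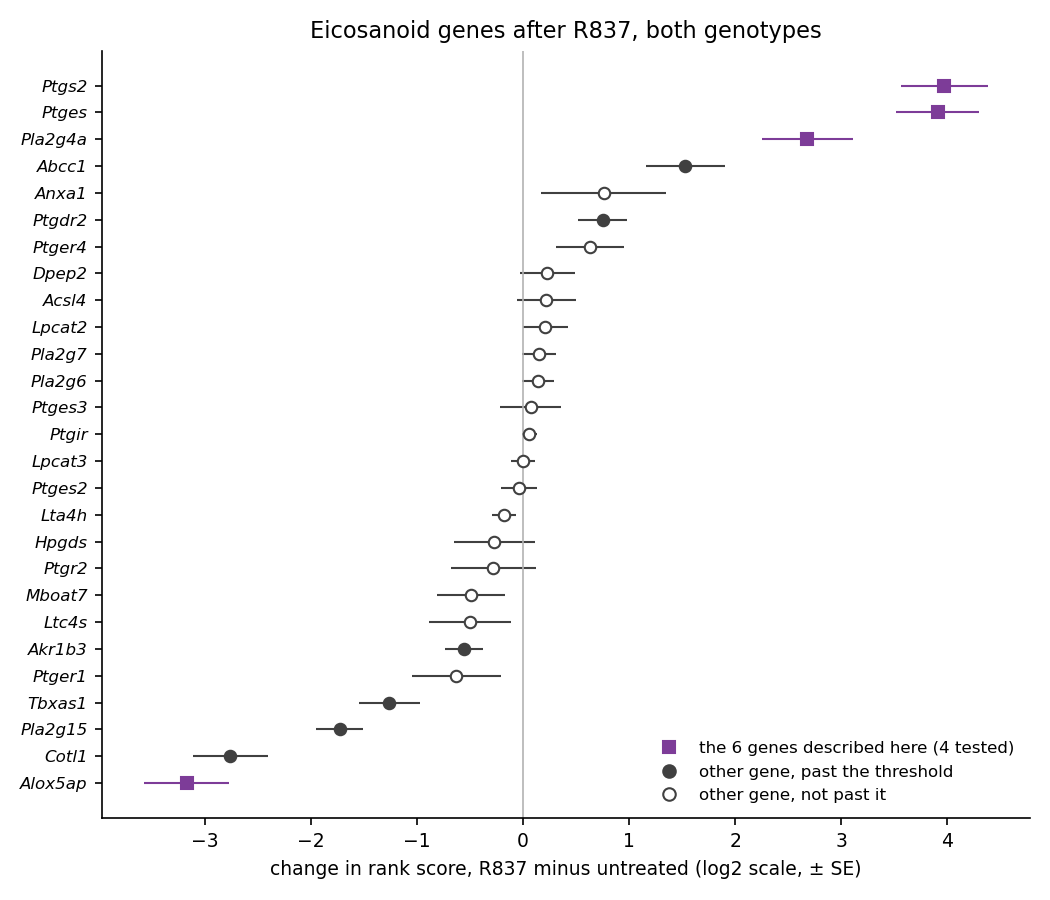
Change in rank score, R837 minus untreated over both genotypes (log2 scale, horizontal axis), of each tested gene of the pathway, with its standard error as a line. Squares are 4 of the 6 genes described here, and circles are the 23 other genes, filled where they passed the test. Ptgs2, Ptges and Pla2g4a lie at 3.97, 3.91 and 2.68 and Alox5ap at -3.17, outside the other genes, which lie between -2.76 for Cotl1 and 1.53 for Abcc1.

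As a description with no test, the genes outside the pathway lists whose rank scores ran most like each gene over the 16 libraries were listed by Pearson's r. For Ptgs2 they were Il16 (r = 0.947), Gsr (0.939), Csf3r (0.927), Ldha (0.926) and Edn1 (0.924), and for Pla2g4a they were Hcar2 (0.941), Fpr1 (0.923), Ddx60 (0.909), Isg15 (0.898) and Calcrl (0.895). For Ptges they were Marcksl1 (0.958), Ehd1 (0.950), Ptprj (0.950), Tnfaip3 (0.948) and Gm46752 (0.946), and for Alox5ap they were Cmc1 (0.995), Extl3 (0.986), Hibch (0.986), Pde8a (0.985) and 2610044O15Rik8 (0.984). Among the genes themselves, Ptgs2 ran closest to Pla2g4a (0.855) and less closely to Ptges (0.599), which ran opposite to Alox5ap (-0.865). All these values share libraries and list lengths, and they hold treated and untreated libraries together.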

How the data were processed

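DNA bound by RNA polymerase II was read as 75 nt single-end reads, per the labels' protocols. The submitters' processing notes name GSNAP, MACS2 and GRCm38; their versions are not given in the sources used here. The authors deposited 1 bp summits for each library, and the deposited score is −log10 of either p or q, which the files leave unsaid. Labels put 16 libraries in 8 groups of 2; the input sample was not used here. Gene regions (21887 coding genes, 1 kb flanks) and promoters came from RefSeq on GRCm38.p6. The 8481 genes present in 2 or more of the shortened lists were fitted together in limma 3.58.1 (R 4.3.3) with a mean for each group, a variance trend, empirical Bayes moderation and Benjamini-Hochberg adjustment over all of them. The pooled fit supplies the errors.

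The 6 genes and all lists were chosen with earlier results of these data known. Of the other pathway genes, those called after R837, between genotypes or at a single time are named, and for likeness the 5 genes with the highest r that do not overlap the gene. Alternatives were full lists, a score minimum of 10, other flanks, 1 rank per gene, numbers of summits, other filters, fewer groups, a replicate block and leaving out each library. Leaving out libraries for single times and full lists was added after the values were seen.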

Additional observations from a re-analysis of the deposited data

How the results depend on the processing

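For Ptgs2, Ptges and Pla2g4a, and for Alox5ap after R837, the sign of each change was kept under the alternatives run, except when numbers of summits replaced ranks. Alox5ap in KO against WT after R837, at 0 as reported, was 0.58 in full lists, 0.56 with a score minimum of 10 and -0.05 with 1 rank per gene. With numbers of summits, KO minus WT was -0.9 over R837 libraries and -1.55 at 6 h for Ptgs2, and -0.04 for Pla2g4a. That alternative, on the scale of log2 of the number plus 1, gave R837 changes of 1.74 for Ptgs2, 1.73 for Ptges, 1.24 for Pla2g4a and -1.58 for Alox5ap. Full lists gave 4.9 for Ptgs2, -4.16 for Alox5ap and 5.41 for Ptgs2 in KO against WT at 6 h, and a score minimum of 10 gave 4.77, -4.11 and 5.46. With 1 rank per gene, Ptgs2 was at 5.08 and Pla2g4a at 3.84, and R837 at 2 h only gave 0.88 and 0.83. These alternatives shift all genes too: the median R837 change was -0.33 as reported, -0.84 in full lists and -0.81 with the score minimum.

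Of the other pathway genes, 7 were called lower after R837 in full lists and 7 with the score minimum, against 4, as were 49% and 48.5% of all genes, against 29.5%. Calls between KO and WT numbered 3 in both and 2 with numbers of summits, against 0, as were 2.19%, 2.47% and 2.88% of all genes, against 0.755%. Genes called at 1 or more single times numbered 15 in full lists, 14 with the score minimum and 0 with only the compared groups, against 8 for R837, and 5, 5, 2 with numbers of summits and 1 without flanks, against 0, for KO and WT. At 2 h only, 4 were called higher, against 2. Tbxas1 lost its call with 1 rank per gene (adjusted p = 0.0686, limma), Ptgdr2 with numbers of summits (0.0651) and Akr1b3 and Ptgdr2 at 2 h only (0.0665 and 0.436). The cause was not tested.

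Leaving out 1 library at a time gave 1 to 2 pathway genes called higher, 3 to 5 lower, 0 to 2 between KO and WT, 5 to 11 at single times after R837 and 0 to 3 at single times between KO and WT. The fewest higher calls came without replicate 2 of KO untreated, and the most KO and WT calls without replicate 1 of KO at 6 h. Ptgs2 ranged from 3.82 to 4.12 after R837 and from 3.96 to 4.65 between KO and WT at 6 h. Over all genes, calls between KO and WT numbered 64 as reported and 18 to 328 with a library left out.

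Same-numbered KO and WT libraries did not deviate together (r of -0.11 to 0.037 over genes), and the reported fit did not pair them. With 2 libraries per group, this r cannot tell whether same-numbered libraries share a culture, an animal or a day. A replicate block left Ptgs2 in KO against WT at 2.02 and at 4.31 for 6 h, moved the calls between KO and WT over all genes from 64 to 35, and changed no count of pathway genes. Without read counts the depth behind a missing summit is unknown.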
